A study of Mus musculus with 4 samples.

Results

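The chemokine ligands Ccl2, Ccl3, Ccl4, Ccl5, Ccl7, Cxcl1, Cxcl9, Cxcl10, Cxcl12 and Cxcl16 were examined in liver cells of mice bred to lack PNPase in hepatocytes. PNPase, the product of Pnpt1, is an RNA exonuclease found mainly in mitochondria. The 10 genes were found through the RefSeq accession of each probe, and they are 10 of 16358 genes so named on the arrays. They were represented by 13 probes, all of which passed the filter on dim probes, so that all 10 genes were measured. The filter asked for signal in either genotype, and Ccl3, Ccl4 and Ccl7 passed it through HepKO alone. The HepKO mice were C57BL/6J mice with floxed Pnpt1 alleles (Albumin-Cre/wt Pnpt1 fl/fl), in which the Albumin promoter drives Cre in hepatocytes. The WT mice were C57BL/6J and carried the same floxed alleles without Cre. Livers were perfused with collagenase and the washed cells taken whole, with no sort for hepatocytes named in the labels. A HepKO and a WT mouse labelled male, aged 12.29 weeks, formed 1 pair, and a HepKO and a WT mouse labelled female, aged 4.29 weeks, formed the other, each matched for litter, in separate experiments. The ages are those of the sample characteristics, and other label fields give a different age for mice of the male pair. Each pair was hybridised on 2 2-colour arrays with the dyes exchanged, and these 2 arrays were counted as 1 replicate, so that n = 2 pairs.

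Chemokines are small secreted proteins that guide leukocytes along gradients by binding receptors on their surface. Cxcl9 and Cxcl10 bind Cxcr3 on activated T and NK cells, Ccl2 and Ccl7 bind Ccr2 on monocytes, and Ccl3, Ccl4 and Ccl5 attract macrophages and T cells. Cxcl1 attracts neutrophils through Cxcr2, Cxcl16 is made as a membrane-bound ligand of Cxcr6, and Cxcl12 is made constitutively by stromal cells and retains cells that carry Cxcr4. In the liver, hepatocytes, Kupffer cells, endothelial and stellate cells can all make chemokines, and interferons and NF-kappa B are the best known inducers.

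Between 53.6% and 58.6% of probes were well above background in HepKO channels and between 48.2% and 54.6% in WT channels. Pnpt1 was measured by 2 probes. The brighter had log2 HepKO over WT ratios of 0.31 and 0.058 (male pair) and of -0.38 and -0.38 (female pair), and the dimmer of -0.67 and -0.32 (male pair) and of -0.50 and -0.60 (female pair). Neither passed the test, and no source used here places the probes relative to the deleted part. In both genotypes, Xist was well above background only in the pair labelled male, and the Y-linked Kdm5d, Ddx3y and Eif2s3y only in that labelled female, so that these genes ran against the labelled sex. The pairs keep their labelled names here, and age, sex and slide cannot be told apart between them. Among hepatocyte markers, none of 9 measured was higher and 1, Cyp2e1, was lower. In whole cell preparations, fewer cells of a type and less RNA per cell cannot be told apart.

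Of the 10 chemokine ligands, 7 were higher in HepKO preparations, 1 (Cxcl12) was lower, and Ccl3 and Cxcl1 did not pass. The test was limma on the 2 pair values with Benjamini-Hochberg adjustment over 11495 genes, at an adjusted p below 0.05. In the same fit 12% of all genes tested were called higher and 3.71% lower. Of the 7 called higher, Ccl4 and Ccl7 had passed the filter on dim probes through HepKO alone. With a strict filter, for probes well above background on all 4 arrays in both genotypes, 5 of 7 ligands measured were higher. By that filter 1222 of 9838 genes were higher. The median log2 HepKO over WT ratio of the 10 genes was 2.64, against 0.083 over all genes tested. This median and the counts of members with ratios above 0 or above 1 include Ccl3, Ccl4 and Ccl7, which passed the filter through HepKO alone. The ratio was above 0 on all 4 arrays for 8 members (39.4% of all genes) and below 0 on all 4 for 1 member (25% of all genes). The mean log2 ratio was above 1 for 8 members, and for 10.3% of all genes tested. A pair of settings ended every call: without the filter on dim probes, and with the background model fitted on all spots, 0 genes of any kind passed in limma. Unadjusted, 3019 genes were higher at a p below 0.05 in the first of these settings and 1954 in the second, and the members' ratios kept their sign in both.

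**Figure D1:**
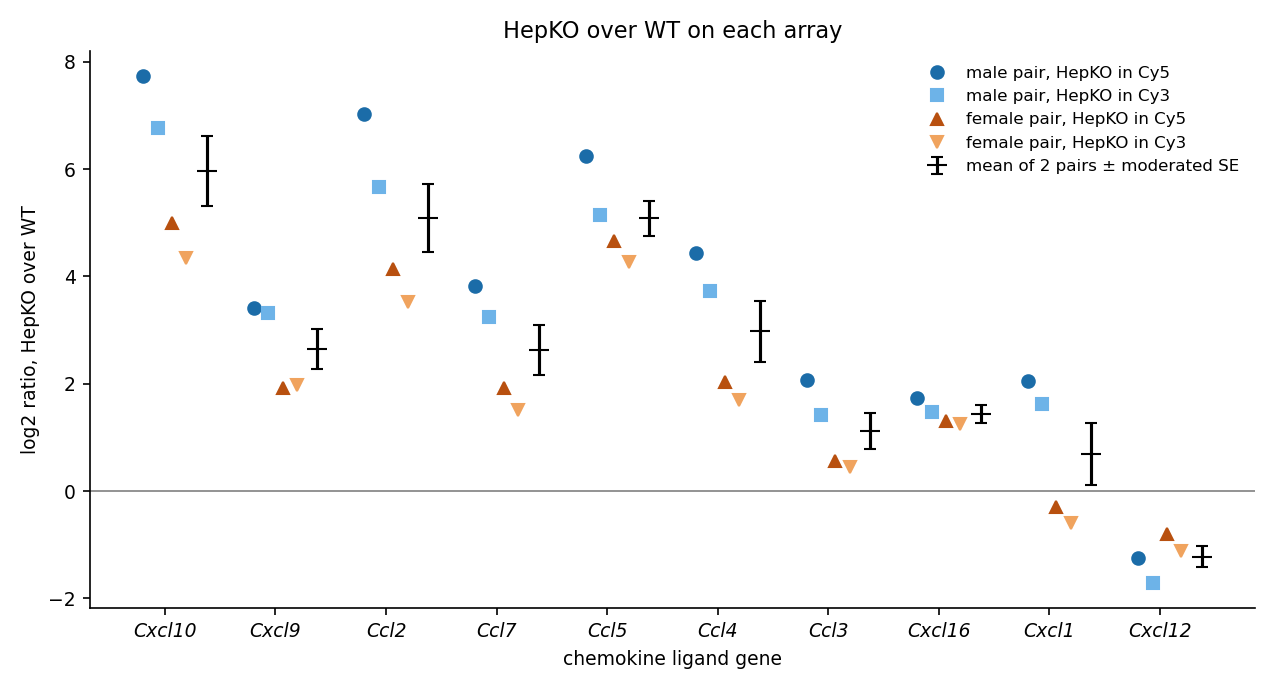
Log2 HepKO over WT ratio (vertical axis) of the 10 chemokine ligand genes (horizontal axis) on each of the 4 arrays, with the mean of the 2 pairs and its moderated SE to the right of the points. The points of Cxcl10 run from 4.35 to 7.73, those of Cxcl12 lie below 0 on all 4 arrays, and those of Cxcl1 lie above 0 in the male pair and below 0 in the female pair.

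Cxcl10 and Cxcl9, the Cxcr3 ligands, were both higher in HepKO preparations. Cxcl10 had log2 ratios of 7.73 and 6.77 (male pair) and of 5.00 and 4.35 (female pair). Its normalized single-channel level, in log2 intensity units, was 14.99 in the male pair's HepKO mouse and 12.14 in the female pair's, against 7.74 and 7.47 in their WT partners. Both HepKO mice thus lay far above both WT mice, and the WT mice lay close together. The mean log2 ratio was 5.96 ± 0.65 (moderated SE, n = 2 pairs; limma adjusted p = 0.0177), a 62.3-fold difference, and ranked 2 from the top among the 11495 genes.

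Cxcl9, which is induced mainly by interferon gamma, had log2 ratios of 3.40 and 3.31 (male pair) and of 1.93 and 1.97 (female pair). Its level was 12.29 and 10.67 in the HepKO mice of the male and female pair, against 8.94 and 8.72 in the WT mice. The WT level was well above background on all 4 arrays, and the groups did not overlap. On average the log2 ratio was 2.65 ± 0.37 (limma adjusted p = 0.0259).

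The promoters of Cxcl10 and Cxcl9, genes that lie close together on chromosome 5 and rose together, and that of Cxcl12, which fell, are shown from the RefSeq table of build GRCm38.p6. Each runs from 250 bases before to 50 after the annotated start, 5′ to 3′ on the gene's strand. Capitals mark matches, on either strand, to the interferon-stimulated response element core (GAAA, any 2 bases, then GAAA), to the interferon gamma activated site TTCNNNGAA or to the NF-kappa B consensus.
Cxcl10 (chr5:92348840-92349139, minus strand): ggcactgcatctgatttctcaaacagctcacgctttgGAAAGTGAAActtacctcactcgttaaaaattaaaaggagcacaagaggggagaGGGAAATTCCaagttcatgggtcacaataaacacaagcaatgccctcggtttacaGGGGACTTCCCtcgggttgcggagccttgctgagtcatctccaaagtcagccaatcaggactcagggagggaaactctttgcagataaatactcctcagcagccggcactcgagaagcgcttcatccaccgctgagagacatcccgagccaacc
Cxcl9 (chr5:92328030-92328329, minus strand): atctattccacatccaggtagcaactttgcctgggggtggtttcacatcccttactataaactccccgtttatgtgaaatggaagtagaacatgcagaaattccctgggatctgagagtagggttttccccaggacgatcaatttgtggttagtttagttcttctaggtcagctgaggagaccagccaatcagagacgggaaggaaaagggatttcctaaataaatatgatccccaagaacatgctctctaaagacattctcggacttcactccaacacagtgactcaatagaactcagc
Cxcl12 (chr6:117168285-117168584, plus strand): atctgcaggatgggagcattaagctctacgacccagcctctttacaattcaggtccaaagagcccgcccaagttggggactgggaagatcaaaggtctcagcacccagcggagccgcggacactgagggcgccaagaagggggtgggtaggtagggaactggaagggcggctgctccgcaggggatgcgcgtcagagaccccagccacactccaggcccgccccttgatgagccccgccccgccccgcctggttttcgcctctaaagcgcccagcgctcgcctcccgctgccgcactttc
The Cxcl10 window held 1 response element core and 3 NF-kappa B matches, of which 2 overlap. The Cxcl9 and Cxcl12 windows held none of the 3 motifs. Of the 5 members with a promoter in the table, Ccl3 also had no match, and Cxcl1 had 2 overlapping NF-kappa B matches. Among all 32851 promoters of the table, 3.44% held the response element core, 8.3% the activated site and 8.46% an NF-kappa B match. A match describes letters in these windows alone.

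Ccl2 and Ccl7, the Ccr2 ligands that attract monocytes, were both higher in HepKO preparations. Ccl2 had log2 ratios of 7.02 and 5.66 (male pair) and of 4.14 and 3.53 (female pair). Its level was 13.42 and 10.67 in the HepKO mice of the male and female pair, against 7.08 and 6.83 in the WT mice. The HepKO mice differed from each other by 2.76 log2 units and the WT mice by 0.25. Over both pairs the log2 ratio was 5.09 ± 0.63 (limma adjusted p = 0.0212).

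Ccl7, the direct neighbour of Ccl2 on chromosome 11, had log2 ratios of 3.83 and 3.24 (male pair) and of 1.93 and 1.51 (female pair) with its brighter probe. The level was 9.64 and 7.90 in the HepKO mice and 6.10 and 6.18 in the WT mice, where the probe was not well above background on any array. The HepKO mean was at least 6.05-fold higher, counting the WT signal at no less than the dimmest probe well above background on each array; such bounds come from 2-colour channels after loess and Aquantile scaling, with dyes balanced. The dimmer probe gave at least 4.11-fold. These bounds deal with WT signal near background, and not with the spread between the 2 pairs. The fitted mean log2 ratio was 2.63 ± 0.47 (limma adjusted p = 0.0382), and the call was lost without male pair replicate 2 (adjusted p = 0.0588) or without female pair replicate 1 (0.0605). With the log ratios of Agilent Feature Extraction, which subtract background without an offset, it was 6.59 ± 0.74 (limma adjusted p = 0.0184).

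**Figure D2:**
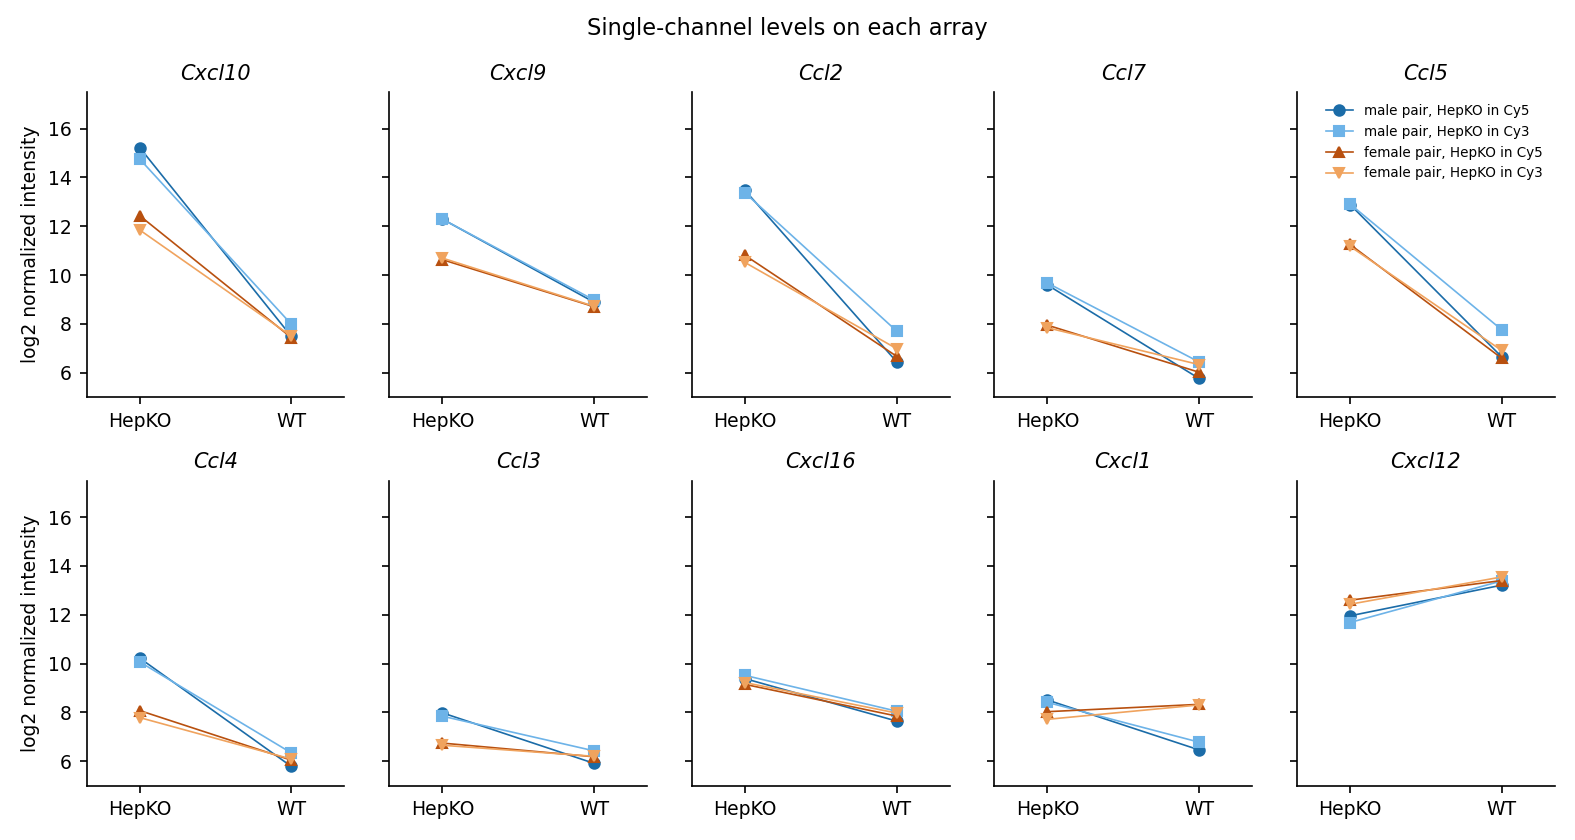
Normalized log2 intensity (vertical axis) of the 10 chemokine ligand genes in the HepKO channel (left) and the WT channel (right) of each of the 4 arrays, joined by a line per array. For Cxcl10 the HepKO levels of the 2 pairs lie apart (means of 14.99 and 12.14) and the WT levels together (7.74 and 7.47), while for Cxcl1 the WT levels lie apart (6.62 and 8.32).

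Ccl5, Ccl4 and Ccl3, which attract macrophages and T cells, all had ratios above 0 on 4 of 4 arrays, and the first 2 passed the test. Ccl5 (RANTES), a product of T cells, NK cells and interferon-exposed cells of many kinds, had log2 ratios of 6.24 and 5.15 (male pair) and of 4.66 and 4.27 (female pair). Its level was 12.90 and 11.22 in the HepKO mice, against 7.21 and 6.75 in the WT mice. The mean log2 ratio was 5.08 ± 0.33 with the lowest adjusted p of the 10 genes (limma adjusted p = 0.0118), a 33.8-fold difference.

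Ccl4 (MIP-1 beta), made by activated macrophages and lymphocytes, had log2 ratios of 4.44 and 3.73 (male pair) and of 2.03 and 1.70 (female pair). Its level was 10.15 and 7.93 in the HepKO mice and 6.06 and 6.07 in the WT mice. In WT it was not well above background on any array, so that the HepKO mean was at least 7.73-fold higher. This bound, close to the fitted ratio, deals with WT signal alone and is no lower limit across pairs. The fitted log2 ratio was 2.98 ± 0.56 (limma adjusted p = 0.0426). It did not pass without male pair replicate 2 (adjusted p = 0.0643) or without female pair replicate 1 (0.0617), and it was 6.59 ± 0.78 with the Feature Extraction log ratios.

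Ccl3 (MIP-1 alpha), the neighbour of Ccl4 on chromosome 11, had log2 ratios of 2.07 and 1.42 (male pair) and of 0.56 and 0.45 (female pair). Its level was 7.92 and 6.70 in the HepKO mice, against 6.17 and 6.19 in the WT mice, where it was not well above background on any array. With WT signal counted by the same bound the HepKO mean was 2.18-fold higher, which equals the fitted ratio and is no lower limit across pairs. Over the pairs the log2 ratio was 1.13 ± 0.34 (limma adjusted p = 0.0978, 95% interval 0.20 to 2.05) and did not pass. With the Feature Extraction log ratios it was 3.49 ± 0.41 and passed (limma adjusted p = 0.0195).

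Cxcl16, the transmembrane chemokine and scavenger receptor, was higher in HepKO preparations by a similar amount in both pairs. Its brighter probe had log2 ratios of 1.74 and 1.47 (male pair) and of 1.297 and 1.25 (female pair). The level was 9.45 and 9.19 in the HepKO mice and 7.85 and 7.91 in the WT mice, without overlap. The mean log2 ratio was 1.44 ± 0.16 (limma adjusted p = 0.0186), and the other probe gave 1.37 ± 0.17.

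Cxcl12 (SDF-1) was the only one of the 10 that was lower in HepKO preparations. It had log2 ratios of -1.26 and -1.70 (male pair) and of -0.81 and -1.12 (female pair). Its level was 11.82 and 12.51 in the HepKO mice, against 13.30 and 13.48 in the WT mice, so that every HepKO value lay below every WT value. The mean log2 ratio was -1.22 ± 0.19 (limma adjusted p = 0.0298). A second probe, designed on another RefSeq transcript of the gene, had -2.07 and -1.73 (male pair) and -1.03 and -0.89 (female pair), with a mean of -1.43 ± 0.27 (limma adjusted p = 0.0557 over all probes tested). In that fit over probes, the probe of Ccl4 (limma adjusted p = 0.0582) and both of Ccl7 (0.0533 and 0.0562) did not pass either.

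Cxcl1 (KC), the neutrophil attractant, had log2 ratios of 2.05 and 1.63 (male pair) and of -0.30 and -0.59 (female pair). Its level was 8.46 and 7.87 in the HepKO mice, against 6.62 and 8.32 in the WT mice. The WT mouse of the female pair thus had a higher level than that of the male pair by 1.70 log2 units, while the HepKO mice differed by 0.59 in the other direction. The mean log2 ratio was 0.70 ± 0.58 (limma adjusted p = 0.434, 95% interval -0.90 to 2.29) and did not pass. The difference between the pairs was not tested, because each pair is 1 replicate.

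The log2 ratio was larger in size in the male than in the female pair for all 10 members. Over all genes tested this held for 67.3%, and over all genes called higher for 70.2%. As measured, the difference between the pairs lay in the HepKO mice for most of the members that rose. In HepKO the level of Cxcl10 was 2.85 log2 units higher in the male than in the female pair's mouse, that of Ccl2 2.76, Ccl4 2.21, Ccl7 1.74, Ccl5 1.68, Cxcl9 1.63 and Cxcl16 0.27. In WT mice the same 7 genes differed between the pairs by between -0.074 and 0.45. Ccl4 and Ccl7 were not well above background on any WT array, so a difference between their WT mice could not show. The 2 arrays of the male pair's WT mouse also lay apart, at 6.45 and 7.71 for Ccl2 and at 6.65 and 7.76 for Ccl5. The levels of HepKO and WT did not overlap over the 4 arrays for 9 members, Cxcl1 being the exception, and this also held for 47.9% of all genes tested. The 9 include Ccl3, Ccl4 and Ccl7, which passed the filter on dim probes through HepKO alone.

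Several members lie side by side in the genome, and their neighbours were measured on the same arrays. On chromosome 5, Art3, an ADP-ribosyltransferase gene between Cxcl9 and Cxcl10, was higher by 0.95 ± 0.15 (limma adjusted p = 0.0297), and the genes directly outside them, Sdad1 (0.58 ± 0.19, adjusted p = 0.115) and Nup54 (0.61 ± 0.19, adjusted p = 0.105), did not pass. Naaa, beyond Sdad1, was higher by 1.40 ± 0.14 (limma adjusted p = 0.0161). On chromosome 11, Ccl6 and Ccl9 lie between Ccl5 and Ccl3 and were both higher, while Taf15, beyond Ccl5, had 0.19 ± 0.15 (adjusted p = 0.418). Ccl12, a Ccr2 ligand of the mouse near Ccl7, had a fitted 0.99 ± 0.23 (limma adjusted p = 0.0612, 95% interval 0.36 to 1.62) and did not pass. It was not well above background on any WT array, and with WT signal bounded as above the HepKO mean was 1.96-fold higher. Cxcl2, next to Cxcl1, had a fitted 0.17 ± 0.15 (adjusted p = 0.459) and was also not well above background on any WT array. Both direct neighbours of Cxcl16 (Med11 and Zmynd15) and the measured one of Cxcl12 (Zfp637) did not pass.

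The genes nearest to each called member were sought by Euclidean distance over the 4 array log2 ratios. For Cxcl10 they were Phf11d (distance 1.23) and Afp (1.23), and for Ccl2 they were Afp (0.80) and Cmpk2 (1.27), a nucleotide kinase gene induced by interferon. For Ccl5 they were Tff3 (0.66), a trefoil factor, and Isg15 (0.68), the interferon-induced ubiquitin-like modifier. Ccl4 lay nearest to the stress transcription factor Ddit3 (0.22) and the cytokine signalling inhibitor Socs1 (0.25), and Ccl7 to Epsti1 (0.38) and the Fc receptor chain Fcer1g (0.40). Cxcl9 lay nearest to Snx20 (0.28) and the endotoxin co-receptor Cd14 (0.30), Cxcl16 to the Isg15-conjugating enzyme Ube2l6 (0.076) and Syt12 (0.10), and Cxcl12 to Aamdc (0.17) and Hykk (0.19).

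Of 28 other chemokine ligand genes, 25 had a named probe and 16 passed the filter on dim probes. Among them 3 were higher, 2 lower and 11 did not pass, and their median log2 ratio was 0.61. In the same fit 12% of all genes tested were called higher and 3.71% lower, so the count called higher was near that share. Ccl6, a mouse chemokine of macrophages and neutrophils, was higher by 3.26 ± 0.14 (limma adjusted p = 0.00993), with levels of 11.55 and 12.23 in HepKO and 8.25 and 9.03 in WT mice. Pf4, a platelet and megakaryocyte chemokine, was higher by 1.97 ± 0.19, and Ccl9, a mouse ligand of Ccr1, by 0.85 ± 0.15. Ccl25, the thymic and gut ligand of Ccr9, was lower at -0.98 ± 0.16. Its dimmer probe had -0.50 ± 0.13 and did not pass (limma adjusted p = 0.0838 over all probes tested). Ccl27a, known best as a skin chemokine that binds Ccr10, was lower at -1.20 ± 0.18, and its probe may also bind near-identical copies of the gene. Of the 25 genes, 13 had no probe well above background on any WT array and 7 had none on any HepKO array. The number called higher was 8 of 16 with the Feature Extraction log ratios and 6 on leaving out male pair replicate 1, or female pair replicate 2. Over all genes, these settings called 1599, 1572 and 1486 higher, against 1378 in the main fit.

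Of 23 chemokine receptor genes, 22 had a named probe and 15 passed the filter. Among them 5 were higher, none was lower and 10 did not pass, with a median log2 ratio of 0.52. Of all genes tested 12% were higher and 3.71% lower. The atypical receptor gene Ccrl2 was higher by 3.22 ± 0.40, with 4.73 and 3.22 (male pair) and 2.66 and 2.26 (female pair). Ackr3, a scavenging receptor of Cxcl12, was higher by 1.71 ± 0.23, Cxcr3 by 1.15 ± 0.16 and the fractalkine receptor Cx3cr1 by 1.11 ± 0.15. Of the receptors matched to the other members, Ccr2 had a fitted 0.77 ± 0.21 (limma adjusted p = 0.0827, 95% interval 0.19 to 1.34) and did not pass. It was above background on no WT array, and with WT signal bounded as above the HepKO mean was 1.67-fold higher. Cxcr6 (0.47 ± 0.16, limma adjusted p = 0.115) and Cxcr4 (0.29 ± 0.15, limma adjusted p = 0.24) did not pass either. Another Cxcr4 probe read 2.20 on male pair replicate 1, and 1.83 and -2.11 in the female pair. Without a value on male pair replicate 2, that probe was not tested. Cxcr2 was not well above background on any array of either genotype. The number of receptors called higher was 9 of 15 with the Feature Extraction log ratios and 2 of 6 with probes well above background throughout. Over all genes these settings gave 1599 of 11495 and 1222 of 9838.

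**Figure D3:**
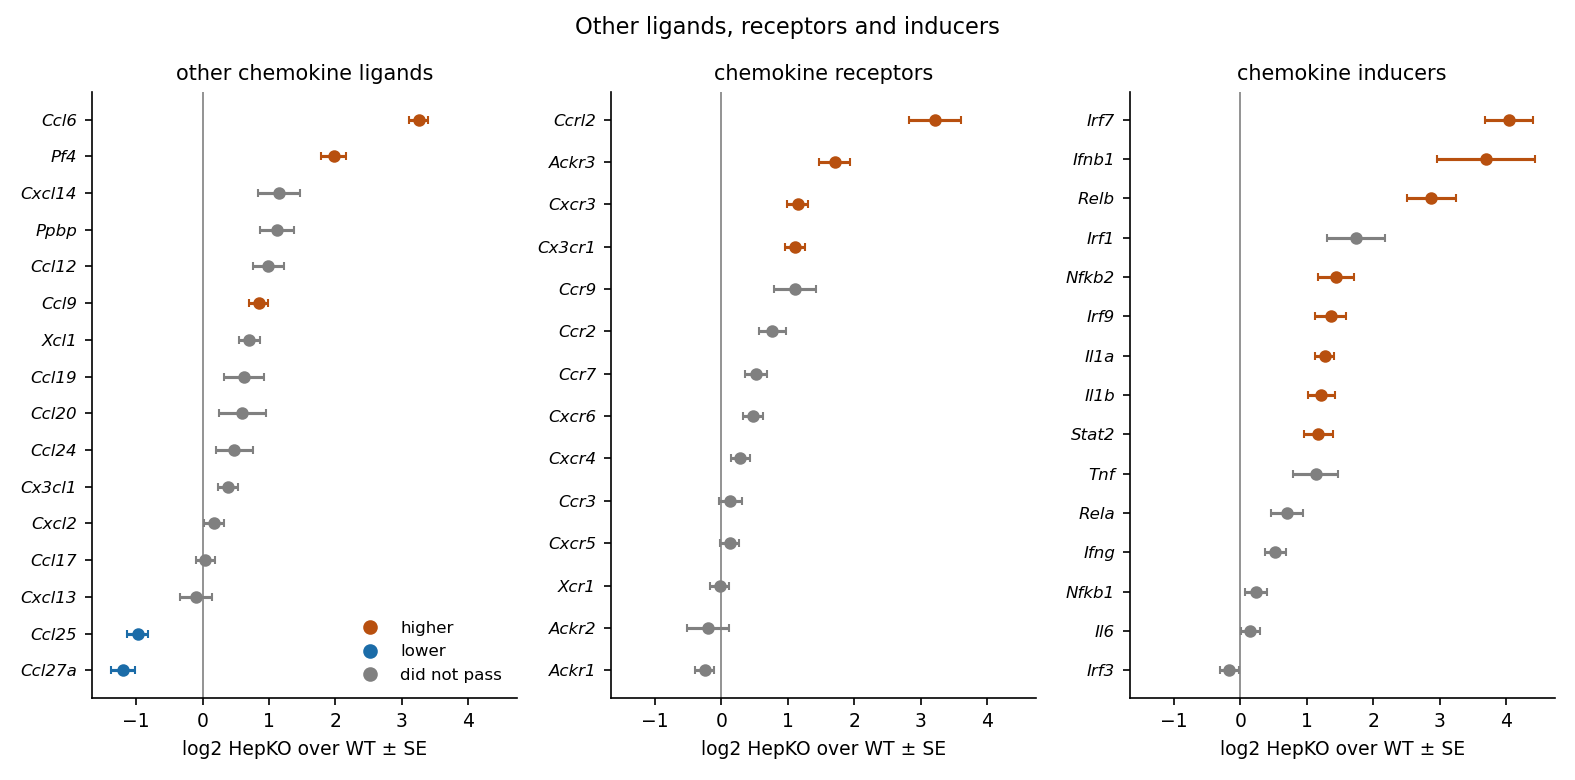
Mean log2 HepKO over WT ratio with its moderated SE (horizontal axis) of the other chemokine ligands, the chemokine receptors and the inducers that passed the filter on dim probes and are reported here, coloured by call. Ccl6 (3.26), Ccrl2 (3.22) and Irf7 (4.05) lead the 3 groups, and Ccl25 and Ccl27a are the genes called lower.

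Among 17 genes for cytokines and transcription factors that induce chemokines, 16 were measured. Of these 9 were higher, none was lower and 7 did not pass, with a median log2 ratio of 1.24. The share of all genes tested was 12% higher and 3.71% lower. The interferon pathway factors Irf7 (4.05 ± 0.36) and Irf9 (1.36 ± 0.23) and the NF-kappa B subunits Relb (2.88 ± 0.37) and Nfkb2 (1.44 ± 0.27) were higher. The other NF-kappa B subunits measured, Rela (0.70 ± 0.24, adjusted p = 0.124) and Nfkb1 (0.24 ± 0.16, adjusted p = 0.353), did not pass. Nor did the interferon regulatory factors Irf1 (1.74 ± 0.44, adjusted p = 0.072) and Irf3 (-0.17 ± 0.14, adjusted p = 0.436). Ifnb1, the type I interferon gene, had levels of 11.27 and 8.21 in HepKO mice and 6.09 and 5.98 in WT mice. In WT it was not well above background on any array, so it passed the filter on dim probes through HepKO alone. With WT signal bounded as above the HepKO mean was at least 12.1-fold higher, which is no lower limit across pairs. The fitted log2 ratio was 3.70 ± 0.74 (limma adjusted p = 0.0468), with 5.18 (male pair) and 2.23 (female pair). In the fit over probes Ifnb1 did not pass (limma adjusted p = 0.0628), nor did Nfkb2 (0.054). Ifng had a fitted 0.53 ± 0.16 (limma adjusted p = 0.0991, 95% interval 0.092 to 0.96) and did not pass. It was above background on no WT array, and with WT signal bounded as above the HepKO mean was 1.44-fold higher. Tnf had 1.13 ± 0.33 (limma adjusted p = 0.095) and did not pass. The cytokine genes Il1a (1.27 ± 0.14, limma adjusted p = 0.0184) and Il1b (1.22 ± 0.20, limma adjusted p = 0.0325) were higher. In the fit over probes, the dimmer probes of Il1a (0.67 ± 0.12, limma adjusted p = 0.0547) and of Irf9 (0.76 ± 0.14, 0.0557) did not pass. Il6 had a fitted 0.15 ± 0.15 (limma adjusted p = 0.504), did not pass and was above background on no WT array.

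Markers of leukocytes and other liver cells moved on the same arrays, and their part in the chemokine ratios was not tested. Of 14 macrophage and monocyte markers measured, 12 were higher, with a median log2 ratio of 1.87. Beside this count, 12% of all genes tested were higher. Their summed linear level was 83392 and 85008 intensity units in the HepKO mice of the male and female pair, against 10654 and 23737 in the WT mice. Such sums, here and below, rest mostly on the brightest genes of a list and need not follow its median. Among these markers, Ccr2 and Itgam were not well above background on any WT array.

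Of 16 T and NK cell markers, 9 were higher (median 1.03), with summed levels of 4757 and 3284 in HepKO and 1278 and 1372 in WT mice, and Gzma, Klrb1c, Klrk1, Ncr1 and Prf1 were not well above background on any WT array. Of 9 neutrophil markers, 3 were higher (median 0.94), with sums of 4466 and 2388 in HepKO and 840 and 748 in WT mice, where Camp, Cxcr2, Elane, Mmp8 and Retnlg were not well above background. Endothelial markers (7 of 11 higher, median 1.09) summed to 13760 and 13423 in HepKO and 7638 and 5669 in WT mice, with Vwf not above background in WT. Stellate and fibroblast markers (5 of 10 higher, median 0.82) summed to 20314 and 17765 in HepKO and 10274 and 9556 in WT mice. Of B cell markers 1 of 3 was higher, of cholangiocyte markers 1 of 4, and of erythroid markers 1 of 4 was higher and 1 lower. Beside all these marker counts, 12% of all genes tested were higher and 3.71% lower. All 18 interferon-stimulated genes measured on a list without chemokines were higher, with a median of 4.19. The summed level of hepatocyte markers was 760279 and 851368 in HepKO mice, against 873997 and 776936 in WT mice.

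**Figure D4:**
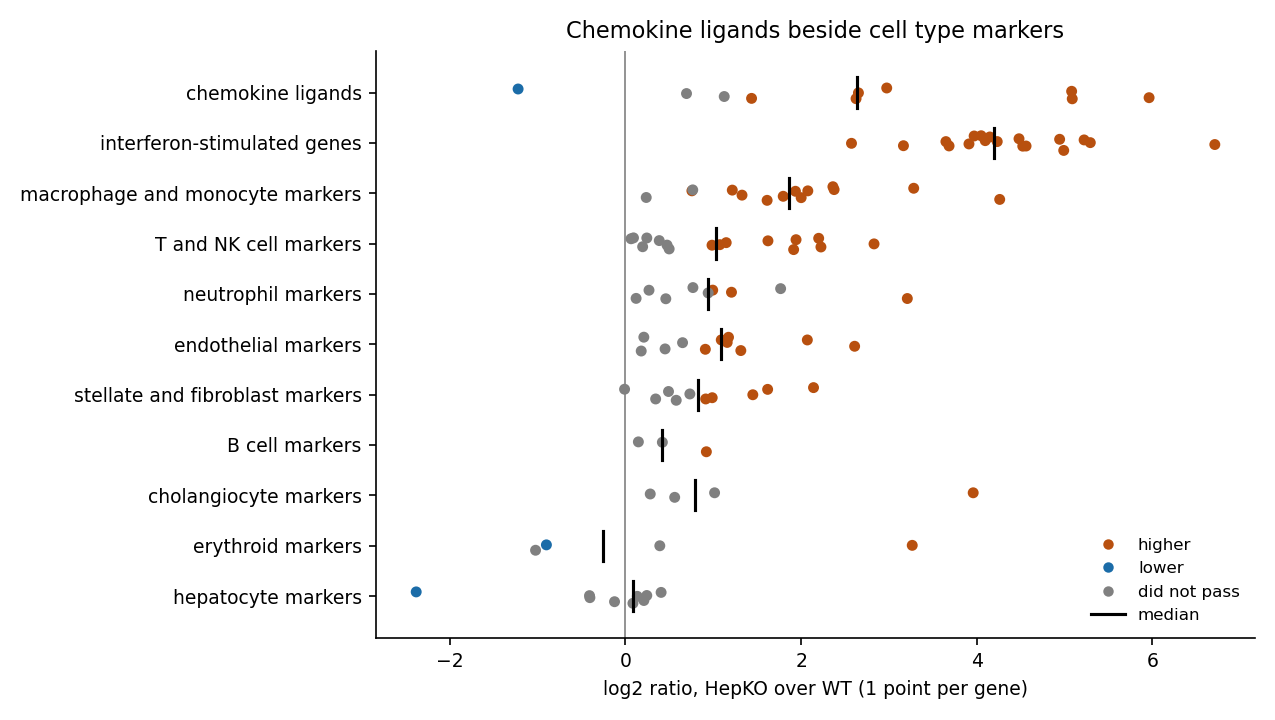
Log2 HepKO over WT ratio (horizontal axis, 1 point per gene that passed the filter on dim probes) of the chemokine ligands, interferon-stimulated genes and cell type markers, with the median of each list as a bar and points coloured by call. The chemokine ligands (median 2.64) lie between the interferon-stimulated genes (4.19) and the macrophage and monocyte markers (1.87), and hepatocyte markers lie around 0.086.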

How the data were processed

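Total RNA of perfused, collagenase-treated and washed liver cells was labelled and hybridised, per the labels' protocols, which name no sort for hepatocytes. Agilent Feature Extraction was version 10.2.1.3, per the file headers. The deposited intensity values used here are the mean signal of a spot and the median of its local background in each channel, with nothing subtracted. The deposited log10 ratios of red over green had been background-subtracted and dye-normalized, per the file headers. A value table of the authors holds log10 ratios that correlated at 1 or -1 with those of the arrays according to the dye of HepKO, so its direction is HepKO over WT, and each column's median was 0. Further steps by the authors are not given in the sources used here.

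Signals were corrected with normexp (offset 50) and normalized by loess within each array (limma 3.58.1, R 4.3.3). The loess fit gave weight 0 to 1639 control spots among 45018. Spots flagged as non-uniform, or as feature population outliers, were left out before normexp (178 to 260 per array), and no spot was saturated. Ratios of all arrays were expressed as HepKO over WT, spots of a probe were averaged, and the 2 arrays of a pair were averaged. Probes well above background on both arrays of a pair in a genotype were kept (22844 of 41174). RefSeq accessions named 22951 probes (55.7%) by the GRCm38.p6 table, used for names and gene order. Each gene was represented by its brightest kept probe. Single-channel levels came from loess and Aquantile scaling. The number of arrays limits the precision, with 1 residual and 3.12 prior degrees of freedom, and nothing says how far 2 pairs represent other litters.

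Genes named are the 10 ligands, the called members of the family lists (the 6 largest for inducers), the 2 nearest genes of each called ligand, and genes a count or value turned on. Markers, gene order neighbours and the inducers Il1a, Il1b and Il6 were named after their values were seen. Some genes of the lists are counted but not reported here by name. The members and lists were chosen with earlier results of these data known. Alternatives changed the background correction, the flags, the normalization, the filter, the probe rule, the dye and the arrays used.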

Additional observations from a re-analysis of the deposited data

Results flagged for a closer look

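The 10 ligands, 16 other ligands and 15 receptors measured were searched for pairs that differ in sign. In 5 of these genes both arrays of one pair lay above 0 and both of the other below 0. The share of all genes with this pattern was not counted. With 1 replicate a pair, none of these differences between pairs was tested. Cxcl1 had a mean log2 HepKO over WT ratio of 1.84 (male pair) and -0.44 (female pair), a difference of 2.28. Ccl20, a ligand of Ccr6, had 1.26 and -0.061, a difference of 1.32, and was not well above background on any WT array. Cxcl13, the B cell chemokine, had 0.31 and -0.50, a difference of 0.80. Ackr2, a scavenging receptor of inflammatory CC chemokines, had -0.78 and 0.37, a difference of -1.15. Ccl17 had -0.0084 and 0.091, a difference of -0.099, and was also not well above background on any WT array. It was well above background on only 2 HepKO arrays, so its ratios compare signals near background.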

How the results depend on the processing

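The sign of the mean ratio of each of the 10 ligands was kept in every alternative in which it was measured. Of the 7 ligands called higher, 0 remained with normexp on all spots or without the filter on dim probes (smallest adjusted p over all genes 0.0696 and 0.0689 in limma; 7 members unadjusted in each), and the same settings gave 0 for Cxcl12, the other ligands, the receptors and all genes. The number of ligands called higher was 4 when spots with a background population flag were left out too, a setting chosen after seeing the data, in which Ccl4, Ccl5 and Cxcl10 lost an array and were not tested. Leaving out 1 array at a time gave 5 to 7 ligands higher, 1 lower, 2 to 6 other ligands (6 on leaving out male pair replicate 1, or female pair replicate 2), 5 receptors, and 920 to 1572 genes in all, against 1378. The other ligands called higher were 8 with the Feature Extraction log ratios and with the authors' value table, 5 with median centring, 6 on the arrays with HepKO in Cy5 and 6 without background correction. Over all genes these settings gave, in the same order, 1599, 1570, 1682, 1406 and 1596 called higher. The receptors called higher were 9 with the Feature Extraction log ratios and with the authors' value table, and 2 with the strict filter. Female pair replicate 2 held a spot with a green background of 41156.5, against at most 39.5 on the other arrays, and the SD of its log2 ratios was 0.267 with normexp on all spots and 0.48 otherwise. No probe was left to test Ccl3, Ccl4 and Ccl7 under the strict filter, where 5 of the 7 ligands measured were higher.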
